A study of Danio rerio with 4 samples.

Results

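Hox genes encode homeodomain transcription factors that stand in rows, the Hox clusters, and are numbered by paralog group from 1 to 13 according to their place in the row. Low numbers are the anterior end, active toward the head, and high numbers the posterior end, active toward the tail and, in paired fins and limbs, toward the tip. In zebrafish fins the hoxa13 and hoxd13 genes are needed for the fin rays, and in the frog Xenopus the hoxc12 and hoxc13 genes act in limb regrowth. The members described here were all rows of the count tables whose gene name was hox, a cluster letter a to d, a number from 1 to 13 and an optional paralog letter, in any case. This gave 38 of 32434 genes, with 5 in HoxA, 15 in HoxB, 11 in HoxC and 7 in HoxD. By paralog number, 17 were posterior (groups 9 to 13), 13 central (groups 4 to 8) and 8 anterior (groups 1 to 3). A letter can cover more than 1 cluster, as the RefSeq annotation (GRCz12tu) places zebrafish Hox genes in 7 clusters.

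RNA was sequenced from fins of wild type zebrafish of strain EK. One group was 2 pools of 10 fins that had regrown for 4 days since they were cut with razor blades, and the other 2 pools of 10 fins that had not been injured. The labels give no age or sex, and do not say which fins were used, whether the stump was collected with the regrown tissue, or if different fish gave the 2 pools of a group. The p-values therefore rest on the spread between pools alone, which may be technical. Library totals were 34290386 to 48247042 counts. Levels are given as CPM (counts relative to the scaled size of the library), fold changes as log2 of regenerating over uninjured fins with their standard error (SE), and a gene was called when its Benjamini-Hochberg adjusted p by edgeR's quasi-likelihood test over all genes was under 0.05. In such whole tissue, fewer cells of a type and less RNA per cell cannot be told apart.

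The Hox genes moved in both directions, and the direction went with the cluster letter. In regenerating fins the posterior genes of HoxA, HoxB and HoxD were mostly higher, whereas HoxC genes of groups 3 to 11 were lower and HOXC13 was higher. Of the 38 members, 29 had enough counts to be tested, and of these 14 were higher, 8 were lower and 7 did not pass. Of all 25594 genes tested, 59.6% were called, and 29.5% were higher and 30.0% lower, so that the count of lower members was close to the background share and the count of higher members stood above it. The median log2 fold change was 0.66 over the tested members, against -0.02 over all tested genes. The pools of the groups did not overlap for 24 of the 29 members, where 81.3% of all tested genes showed the same. With scaling by total counts alone, which raised the median over all tested genes from -0.0244 to 0.187 on the log2 scale, 15 members were higher and 6 lower, and no called member changed direction under either other scaling.

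By cluster, 4 of 5 tested HoxA genes, 4 of 7 HoxB genes and 5 of 7 HoxD genes were higher, and 0 in these clusters were lower by edgeR, at an unadjusted p under 0.05, or by DESeq2. In HoxC, 1 of 10 tested genes was higher and 8 were lower. The median log2 fold change was 1.35 for HoxA, 1.0 for HoxB, 0.87 for HoxD and -0.94 for HoxC. By paralog number, 11 of the 17 posterior genes were higher and 3 lower, and the 3 lower ones, HOXC9, HOXC10 and HOXC11, were all HoxC genes. Of the 8 tested central genes 2 were higher and 4 lower, and of the 4 tested anterior genes 1 was higher and 1 lower. Over all tested genes 29.5% were higher and 30.0% lower. The shares of central and anterior genes higher, and of anterior genes lower, were near these. The central and anterior genes that were lower all belonged to HoxC. Differences between clusters or between paralog classes were not tested, since 2 pools against 2 leave an exact permutation test no p under the threshold and the members were chosen by name rather than sampled.

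**Figure D1:**
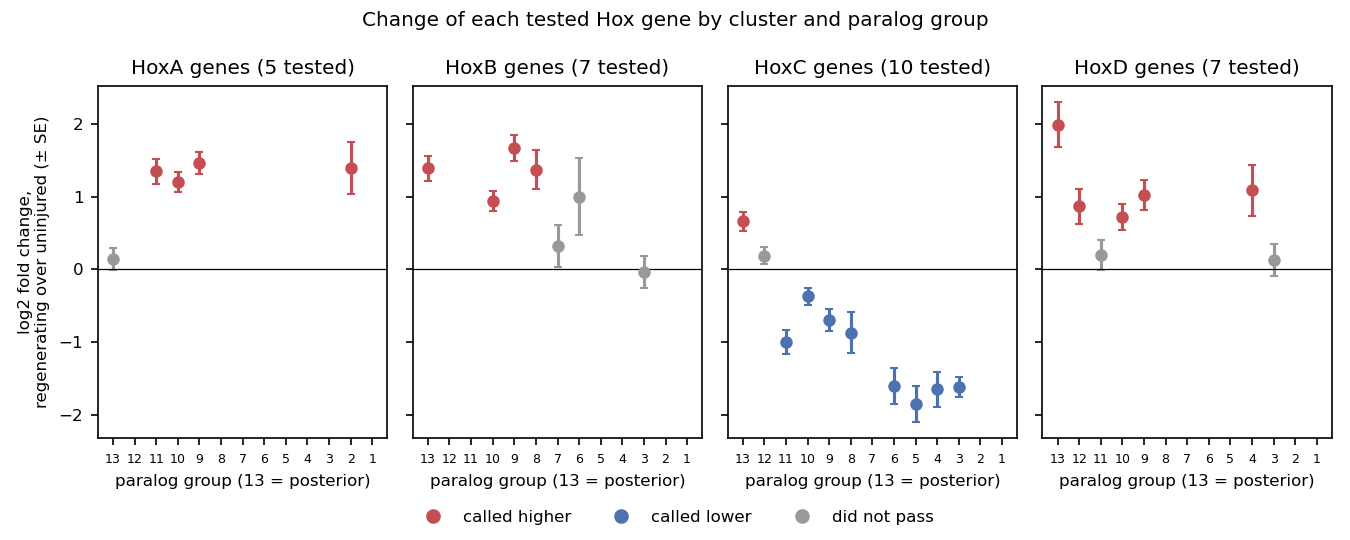
The log2 fold change of each tested Hox gene, regenerating over uninjured fins, is plotted against its paralog group from 13 on the left to 1 on the right, with 1 panel for each cluster letter, bars for the SE, and colours for the call. HoxC values run from 0.66 for HOXC13 to -1.85 for HOXC5, while 18 of the 19 tested HoxA, HoxB and HoxD genes lie above 0.

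HOXC13 and HOXC12, the 2 most posterior genes of HoxC by number, were the only genes of that letter with a log2 fold change above 0. Of these, HOXC13 alone passed the test. HOXC13 (ENSDARG00000070353), whose mouse and human counterparts act in hair and nail, stood at 75.3 and 71.8 CPM in the regenerating pools and at 50.3 and 42.5 CPM in the uninjured pools. The regenerating pools were the 2 higher ones, with a log2 fold change of 0.66 ± 0.13 (SE, 2 pools each, edgeR adjusted p = 0.00263), which is 1.58-fold. HOXC12 (ENSDARG00000070352) was measured at 50.8 and 48.1 CPM against 45.4 and 41.2 CPM, a log2 fold change of 0.19 ± 0.12 that did not pass (edgeR adjusted p = 0.203). Its pools did not overlap either, but the gap was small, and with scaling by total counts alone it passed with a log2 fold change of 0.40 (edgeR adjusted p = 0.0356).

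The next HoxC genes toward the anterior end were lower in regenerating fins. HOXC11 (ENSDARG00000070351), a gene of the hindlimb in mouse, fell from 43.6 and 36.4 CPM in uninjured pools to 22.2 and 17.8 CPM in regenerating pools, a log2 fold change of -1.0 ± 0.16 (edgeR adjusted p = 0.000721). HOXC10 (ENSDARG00000070348) had 38.9 and 38.1 CPM in uninjured and 27.9 and 31.7 CPM in regenerating pools, a log2 fold change of -0.37 ± 0.12 (edgeR adjusted p = 0.0298). HOXC9 (ENSDARG00000092809), which in mouse helps to lay out the motor neurons of the trunk, went from 14.1 and 11.8 to 7.63 and 8.32 CPM (-0.70 ± 0.15, edgeR adjusted p = 0.00379). All 3 genes had both uninjured pools above both regenerating pools. Over all tested genes the pools did not overlap, in either direction, for 81.3%. The HOXC10 call was the least firm of them. It was lost when any 1 of the 4 libraries was left out, with an edgeR adjusted p between 0.0566 and 0.244, as well as with scaling by total counts alone (edgeR adjusted p = 0.424) and with DESeq2 (adjusted p = 0.0606).

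The central HoxC genes, known in vertebrate embryos for patterning the neck and trunk, had few counts and were lower in regenerating fins. HOXC8 (ENSDARG00000070346) went from 1.36 and 1.76 CPM to 0.679 and 1.01 CPM, a log2 fold change of -0.87 ± 0.28 (edgeR adjusted p = 0.0248). HOXC6 (ENSDARG00000070343) went from 2.44 and 2.23 CPM to 0.62 and 0.918 CPM (-1.60 ± 0.25, edgeR adjusted p = 0.000785). These 2 genes, like the others of the group and 81.3% of all tested genes, had pools that did not overlap. HOXC5 (ENSDARG00000070340) fell from 1.78 and 2.35 CPM to 0.54 and 0.60 CPM, with a log2 fold change of -1.85 ± 0.25 (edgeR adjusted p = 0.000386), and HOXC4 (ENSDARG00000070338) from 1.63 and 1.97 CPM to 0.56 and 0.581 CPM, with -1.65 ± 0.24 (edgeR adjusted p = 0.000579). These levels rest on 27 to 93 counts per library. The HOXC8 call was lost without regenerating replicate 1 (edgeR adjusted p = 0.16), without uninjured replicate 2 (edgeR adjusted p = 0.133), with scaling by total counts alone (edgeR adjusted p = 0.0953) and with DESeq2 (adjusted p = 0.105). The calls of HOXC4, HOXC5 and HOXC6 remained under all alternatives that tested them.

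At the anterior end, hoxc3a (ENSDARG00000070339) had the most counts of any HoxC gene outside the posterior groups. It fell from 37.3 and 43.4 CPM in the uninjured pools to 12.1 and 14.2 CPM in the regenerating pools, a log2 fold change of -1.62 ± 0.14 (edgeR adjusted p = 4.32e-05), or 3.08-fold lower. The uninjured pools held 1422 and 1480 counts of it and the regenerating pools 603 and 757. In the RefSeq annotation of the GRCz12tu assembly, which is not the build of the counts, the span of hoxc3a encloses 5 other Hox genes, hoxc4a, hoxc5a, hoxc6a, hoxc8a and hoxc9a. Whether reads of such overlapping transcripts were shared between these genes was not tested. For hoxc1a only 5 counts in all were found in each group, and it was not tested.

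**Figure D2:**
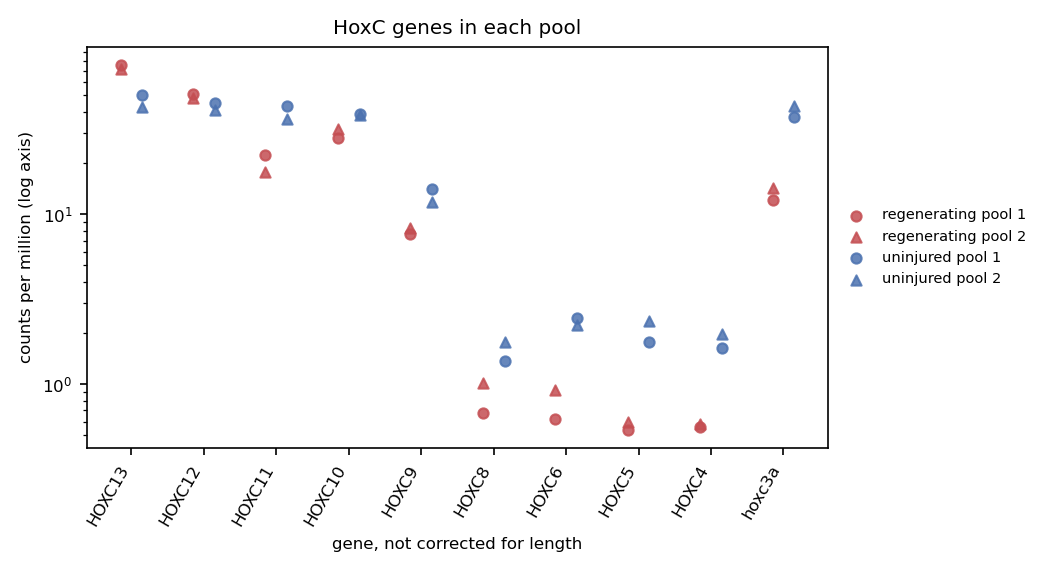
Each point is the CPM of 1 HoxC gene in 1 pool, on a log axis and not corrected for gene length, with regenerating pools in red, uninjured pools in blue and genes ordered from posterior to anterior. The regenerating pools lie above the uninjured pools for HOXC13 and HOXC12 and below them for the other 8 genes. Over all tested genes the pools did not overlap, in either direction, for 81.3%.

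Counts of 2 genes set against each other within 1 library do not depend on how libraries are scaled. In the regenerating pools 3.39 and 4.04 HOXC13 counts were found for each HOXC11 count, against 1.15 and 1.17 in the uninjured pools. For each hoxc3a count there were 6.25 and 5.06 HOXC13 counts in regenerating pools and 1.35 and 0.979 in uninjured pools. For each HOXC12 count the ratio was 1.48 and 1.49 against 1.11 and 1.03. For all 9 genes set against HOXC13 the ratio was higher in both regenerating pools than in both uninjured pools. The make-up of HoxC transcripts was thus shifted toward HOXC13 in both regenerating pools. HOXC13 had the highest log2 fold change in HoxC (0.66), so this direction largely follows from the fold changes above and is no separate support. HOXC12 and HOXC13 together took 62.5% ± 1.5 of HoxC counts in regenerating pools and 39.1% ± 1.86 in uninjured pools (mean ± SD, n = 2 pools each). By paralog number the log2 fold changes did not fall evenly, since HOXC11 had a lower value (-1.0) than HOXC10 (-0.37), HOXC9 (-0.70) and HOXC8 (-0.87). RefSeq also places hoxc13b, hoxc12b, hoxc11b and hoxc6b in another cluster, on chromosome 11. The copy of HOXC13, HOXC12, HOXC11 and HOXC6 is uncertain, so that they may not all stand in the same row.

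**Figure D3:**
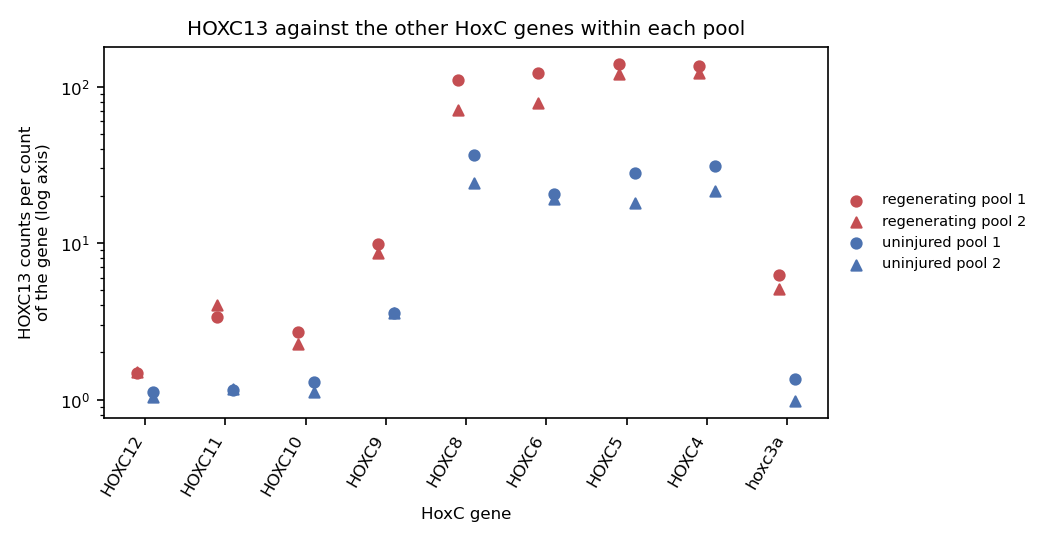
Each point gives the number of HOXC13 counts per count of another HoxC gene in 1 pool, on a log axis and not corrected for gene length, with genes ordered from posterior to anterior. For all 9 genes both regenerating pools lie above both uninjured pools. The values are 1.48 and 1.49 against 1.11 and 1.03 for HOXC12, the first gene in the order. They are 135 and 123 against 30.9 and 21.6 for HOXC4, and 6.25 and 5.06 against 1.35 and 0.979 for hoxc3a, the last. HOXC13 had the highest log2 fold change of the HoxC genes, so this direction largely follows from it.

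In HoxA, 3 posterior genes rose by similar amounts. hoxa9b (ENSDARG00000056819) stood at 11.1 and 10.6 CPM in regenerating pools and at 4.04 and 3.84 CPM in uninjured pools, a log2 fold change of 1.46 ± 0.15 (edgeR adjusted p = 7.58e-05). hoxa10b (ENSDARG00000031337) rose from 5.48 and 5.08 to 12.6 and 11.6 CPM (1.2 ± 0.14, edgeR adjusted p = 0.000176), and HOXA11 (ENSDARG00000007009), whose mouse counterpart patterns the forearm, from 2.44 and 2.11 to 5.60 and 6.0 CPM (1.35 ± 0.17, edgeR adjusted p = 0.000269). In each gene the groups were well apart, and the calls remained under all alternatives that tested them.

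hoxa13b (ENSDARG00000036254), a gene of the fin tip, had the most counts of any member, with no correction for length, at 24.6% ± 2.24 of all Hox counts in uninjured and 26.1% ± 0.34 in regenerating pools. It was measured at 97.7 and 93.8 CPM in regenerating and at 97.2 and 76.5 CPM in uninjured pools. The groups overlapped, and the log2 fold change of 0.14 ± 0.15 did not pass (edgeR adjusted p = 0.431). Leaving out each library in turn, it ranged from 0.01 to 0.33, so that the uninjured pools limit how precisely it is known. The only anterior HoxA gene among the members, hoxa2b (ENSDARG00000023031), known for patterning the second pharyngeal arch, stood at 1.08 and 1.56 CPM against 0.341 and 0.675 CPM (1.39 ± 0.36, edgeR adjusted p = 0.00988). It rested on 13 and 23 counts in the uninjured pools, and its call was lost without regenerating replicate 2 (edgeR adjusted p = 0.0561) and without uninjured replicate 1 (edgeR adjusted p = 0.0615).

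In HoxB the 3 posterior genes were all higher in regenerating fins. HOXB9 (ENSDARG00000056023) rose from 1.76 and 1.56 to 5.08 and 5.47 CPM, a log2 fold change of 1.67 ± 0.18 (edgeR adjusted p = 0.000112) or 3.18-fold. HOXB13 (ENSDARG00000056015), known in mouse for roles in the prostate and at the tail end, rose from 2.70 and 2.41 to 6.50 and 6.94 CPM (1.39 ± 0.17, edgeR adjusted p = 0.000177). hoxb10a (ENSDARG00000011579), a group 10 gene of HoxB that mammals lack, rose from 5.72 and 5.64 to 10.4 and 11.4 CPM (0.94 ± 0.14, edgeR adjusted p = 0.000602). None of these 3 genes had overlapping pools, as was so for 81.3% of all tested genes.

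Of the central HoxB genes, HOXB8 (ENSDARG00000056027) was higher, with 1.22 and 1.57 CPM in regenerating and 0.525 and 0.558 CPM in uninjured pools (1.37 ± 0.27, edgeR adjusted p = 0.00278). HOXB7 (ENSDARG00000056030) and HOXB6 (ENSDARG00000010630) did not pass, with log2 fold changes of 0.32 ± 0.29 and 1.0 ± 0.53. HOXB6 had 13 and 3 counts in the uninjured pools, and without uninjured replicate 1 it passed with a log2 fold change of 2.30 (edgeR adjusted p = 0.0267). The anterior HOXB3 (ENSDARG00000029263), a gene of the hindbrain and pharynx, was nearly level at 1.30 and 1.46 CPM against 1.42 and 1.41 CPM (-0.03 ± 0.22, edgeR adjusted p = 0.906).

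The remaining 8 HoxB members were too low to test, and no fold change is given for them. hoxb1a had 0 counts in all 4 libraries. Over HoxB and hoxc1a, the 9 untested members held 0 to 9 counts in any library and at most 23 counts summed over the 4 libraries, where 3 counts correspond to 0.0562 to 0.0881 CPM (counting error only). Among them hoxb6b had 0 counts in both regenerating pools and 5 and 1 in the uninjured pools. With no filter on low counts it was called lower (edgeR adjusted p = 0.0484). At this depth, differences between the groups in the other 8 were not detectable.

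In HoxD, hoxd13a (ENSDARG00000059256), the fin ray gene at the posterior end of its cluster, was higher in regenerating pools. It stood at 2.20 and 1.46 CPM in regenerating pools and at 0.42 and 0.499 CPM in uninjured pools, a log2 fold change of 1.99 ± 0.31 (edgeR adjusted p = 0.000756), from 16 and 17 counts to 110 and 78. Both regenerating pools were above both uninjured pools, although they differed between themselves, and the log2 fold change was 1.68 to 2.26 with each library left out in turn. HOXD12 (ENSDARG00000059263) was higher at 3.08 and 2.87 against 1.97 and 1.26 CPM (0.87 ± 0.24, edgeR adjusted p = 0.013), and HOXD10 (ENSDARG00000057859) at 3.8 and 3.66 against 2.41 and 2.11 CPM (0.72 ± 0.18, edgeR adjusted p = 0.00881). Without regenerating replicate 1 the HOXD12 call was lost (edgeR adjusted p = 0.0523).

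HOXD9 (ENSDARG00000059274) rose from 1.71 and 1.44 to 3.46 and 2.92 CPM, a log2 fold change of 1.02 ± 0.21 (edgeR adjusted p = 0.00297). HOXD11 (ENSDARG00000059267) did not pass, with 2.40 and 2.19 CPM against 2.26 and 1.73 CPM (0.20 ± 0.21, edgeR adjusted p = 0.443), and its groups overlapped. The central gene HOXD4 (ENSDARG00000059276) was called higher at 0.58 and 0.487 against 0.236 and 0.264 CPM (1.09 ± 0.35, edgeR adjusted p = 0.0277), on 9 counts in each uninjured pool. Its call was lost when any 1 library was left out (edgeR adjusted p of 0.071 to 0.155) and with DESeq2 (adjusted p = 0.211). The anterior HOXD3 (ENSDARG00000059280) did not pass (0.13 ± 0.22, edgeR adjusted p = 0.635). In the RefSeq annotation (GRCz12tu) the span of hoxd3a encloses hoxd4a, and whether reads were shared between HOXD3 and HOXD4 was not tested.

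**Figure D4:**
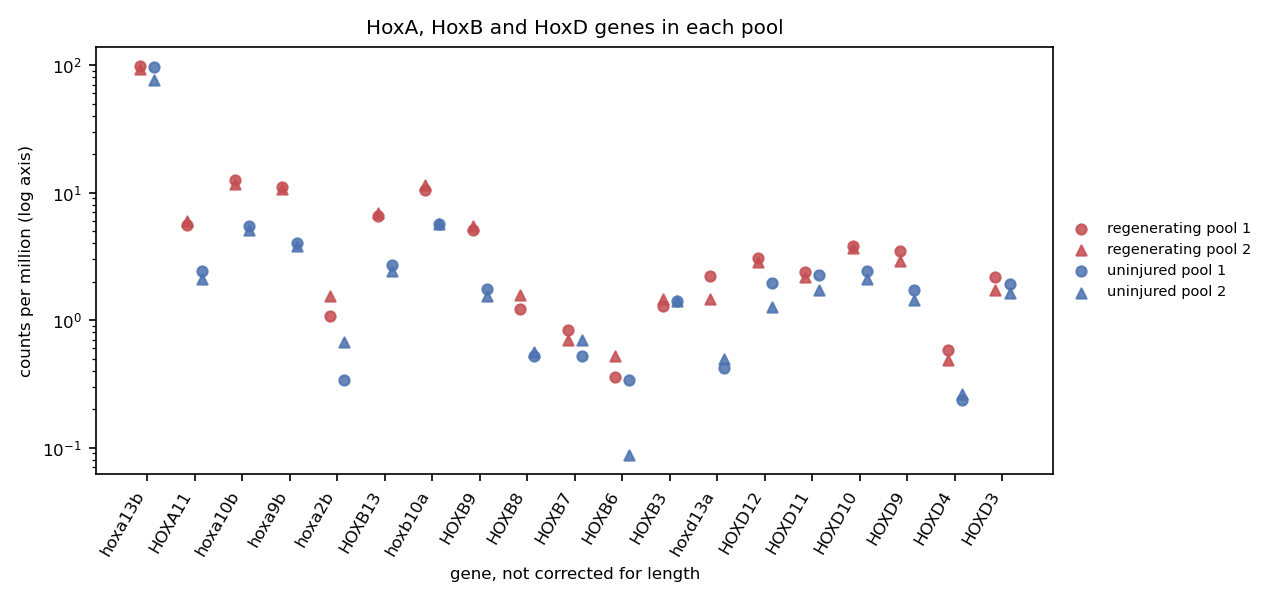
Each point is the CPM of 1 tested HoxA, HoxB or HoxD gene in 1 pool, on a log axis and not corrected for gene length, ordered within each cluster from posterior to anterior. hoxa13b lies near the top in all 4 pools, while the red regenerating points lie above the blue uninjured points for 14 of the 19 genes without overlap. Over all tested genes the pools did not overlap, in either direction, for 81.3%, a larger share.

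The 4 tested genes of paralog group 13 can be set side by side, with no hoxa13a among the members. hoxd13a, HOXB13 and HOXC13 rose, by 1.99, 1.39 and 0.66 on the log2 scale, and hoxa13b had a log2 fold change of 0.14 that did not pass. Group 9 split by cluster, with HOXB9, hoxa9b and HOXD9 higher (1.67, 1.46 and 1.02) and HOXC9 lower (-0.70). Group 10 split the same way, with hoxa10b, hoxb10a and HOXD10 higher (1.2, 0.94 and 0.72) and HOXC10 lower (-0.37). In group 11, HOXA11 was higher (1.35), HOXD11 did not pass (0.20) and HOXC11 was lower (-1.0). In group 4, HOXD4 had a log2 fold change of 1.09 and HOXC4 of -1.65, and in group 8 HOXB8 had 1.37 and HOXC8 -0.87.

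Summed over all members, Hox transcripts stood at 370 and 362 CPM in regenerating pools and at 371 and 332 CPM in uninjured pools. On this scale the sum was nearly level while its parts shifted. HoxC gave 198 and 195 CPM in regenerating against 237 and 222 CPM in uninjured pools, HoxA 128 and 124 against 109 and 88.2 CPM, HoxB 26.1 and 28.3 against 13.4 and 12.9 CPM, and HoxD 17.7 and 15.3 against 10.9 and 8.95 CPM. The level sum and the lower HoxC sum depend on the scaling. Regenerating pools held 18522 and 19321 Hox counts in totals of 47858392 and 48247042. Uninjured pools held 14126 and 11310 in totals of 43836649 and 34290386. Relative to these unscaled totals, the Hox sum was higher in both regenerating pools, and the HoxC sums of the groups overlapped. As a share of all Hox counts, posterior genes made up 94.0% and 92.9% in regenerating pools and 86.4% and 82.6% in uninjured pools. The 95% Wilson intervals of these shares, which cover counting error only, ran from 93.6% to 94.3%, 92.6% to 93.3%, 85.8% to 87.0% and 81.9% to 83.3%. Most of that difference rested on hoxc3a. Without it, in a calculation chosen after seeing the data, the posterior share was 96.9% ± 0.283 in regenerating and 95.6% ± 0.715 in uninjured pools (mean ± SD, n = 2 pools each). Group 13 took 48.6% ± 0.74 of all Hox counts in regenerating and 38.7% ± 2.75 in uninjured pools. These sums weight long and abundant genes more, and no order of levels between genes is given because transcript lengths were not used here.

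**Figure D5:**
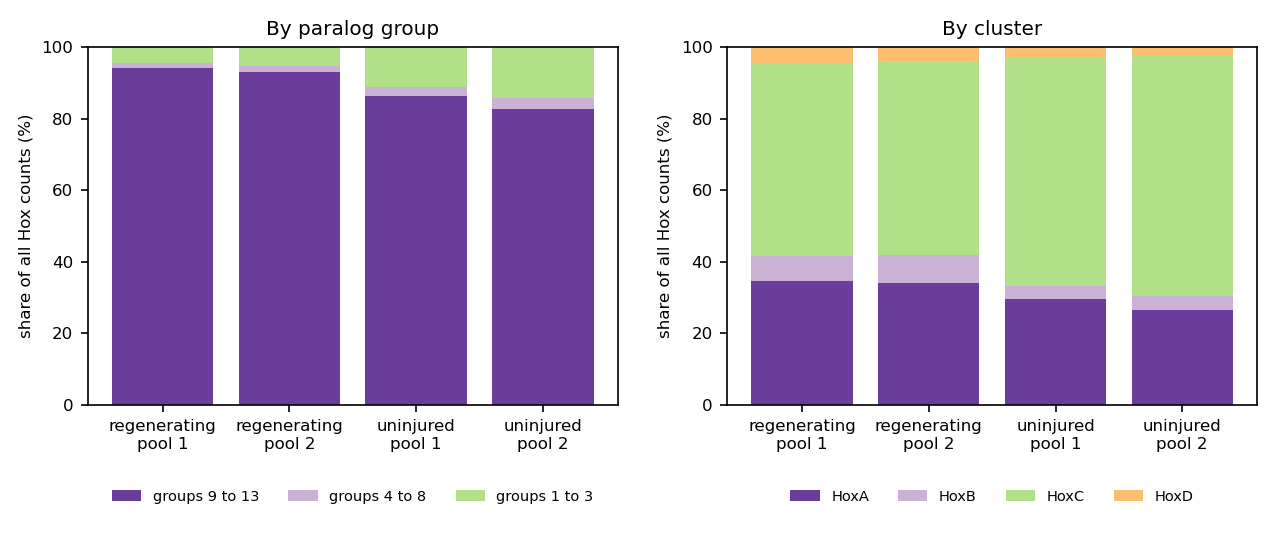
Stacked bars give the share of all Hox counts in each pool, in percent, by paralog class on the left and by cluster letter on the right, with counts not corrected for gene length. Groups 1 to 3 take 4.54% and 5.26% in the regenerating pools and 11.1% and 14.3% in the uninjured pools, and the HoxC share is lower in both regenerating pools.

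Hox proteins bind DNA together with Pbx and Meis proteins, which are homeodomain cofactors. Only 9 of the 15 cofactor names searched were found. Of 8 tested cofactor genes, 1 was higher, 4 were lower and 3 did not pass (median log2 fold change -0.20). Among all tested genes 59.6% were called, 29.5% higher and 30.0% lower, and the share of cofactor genes called was close to that. pbx4 (ENSDARG00000052150) rose from 24.6 and 23.0 to 52.0 and 47.7 CPM (1.07 ± 0.12). meis3 (ENSDARG00000002795) fell from 1.73 and 2.05 to 0.819 and 0.656 CPM (-1.36 ± 0.24), and meis1a (ENSDARG00000002937) from 9.29 and 7.37 to 4.52 and 4.42 CPM (-0.90 ± 0.17). Meis genes mark the part of the limb nearest the body in mouse. A second Meis1 gene, MEIS1 (ENSDARG00000012078), fell by 0.53 ± 0.12 on the log2 scale, from 49.7 and 48.8 to 33.3 and 35.0 CPM, a call lost with scaling by total counts alone (edgeR adjusted p = 0.0988) and without regenerating replicate 1 (edgeR adjusted p = 0.0531), settings in which 2 cofactor genes each were lower.

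Genes of proteins that keep Hox genes silent or active in embryos, the Polycomb and Trithorax groups, moved both ways. Of 25 tested, 11 were higher, 8 lower and 6 did not pass (median log2 fold change 0.24), where 29.5% of all tested genes were higher and 30.0% lower. BMI1 (ENSDARG00000006010), a Polycomb subunit gene, rose by 1.32 ± 0.13, and WDR5 (ENSDARG00000016903), a subunit gene of Trithorax methyltransferase complexes, by 1.38 ± 0.14. Other genes of the Trithorax complexes, chosen after their values were seen, moved both ways. kmt2a (-0.94 ± 0.13) and kmt2ba (-0.37 ± 0.12) were lower, ASH2L (0.87 ± 0.12) was higher, and kmt2bb, RBBP5 and MEN1 did not pass. Chosen after their values were seen, EZH2 (ENSDARG00000010571), the Polycomb methyltransferase of histone H3, rose by 2.00 ± 0.21 and its relative ezh1 (ENSDARG00000037894) fell by 1.09 ± 0.12. kdm6bb (ENSDARG00000056929), which encodes an enzyme that removes the Polycomb mark, rose by 2.34 ± 0.13 from 38.2 and 40.0 to 202 and 195 CPM. Its relatives in the list, chosen after their values were seen, did not rise. KDM6B (ENSDARG00000088087) did not pass (0.04 ± 0.14), and KDM6A (-0.48 ± 0.12) and kdm6al (-0.66 ± 0.18) were lower. cbx7a (ENSDARG00000038025), another Polycomb subunit gene, fell by 2.71 ± 0.20. Retinoic acid switches on anterior Hox genes in embryos. Of 23 tested genes of its synthesis, breakdown and reception, 6 were higher, 5 lower and 12 did not pass, with a median of 0.09. Both shares were below those over all tested genes. ALDH1A2 (ENSDARG00000053493), a synthesis enzyme gene that is also in the blastema list below, stood at 33.3 and 32.9 CPM against 4.38 and 4.11 CPM. Another synthesis gene, ALDH1A3, did not pass (0.35 ± 0.15). Of the breakdown genes, CYP26A1 (-0.74 ± 0.15) and CYP26C1 (-1.35 ± 0.29) were lower and CYP26B1 (0.44 ± 0.14) was higher. ALDH1A3 and these breakdown genes were chosen after their values were seen.

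Of 13 tested genes known to stand beside Hox clusters in vertebrates, 5 were higher, 2 lower and 6 did not pass (median log2 fold change 0.02). The share of them called was a little below the 59.6% of all tested genes. The caudal gene cdx4 had too few counts to be tested. EVX2 (ENSDARG00000059255), which in vertebrates stands next to the posterior end of HoxD, had 1 count in 1 regenerating pool and 0 in the other 3 libraries, beside the increase of hoxd13a. Of 16 tested genes of fin field identity and growth, 10 were higher, 3 lower and 3 did not pass, with a median of 0.76. The share higher was above the 29.5% of all tested genes, and the share lower was below their 30.0%. Among the fin field genes SHH (ENSDARG00000068567), the posterior signal of the fin bud, rose by 4.05 ± 0.20. The genes TBX5, TBX4 and tbx5b, which tell pectoral from pelvic fins, and EVX2 were chosen after their values were seen. TBX5 (ENSDARG00000024894) lay at 0.0881 to 0.12 CPM, TBX4 (ENSDARG00000030058) at 0.315 to 0.646 CPM and tbx5b (ENSDARG00000092060) at 1.33 to 2.12 CPM, and neither TBX4 nor tbx5b passed the test.

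Marker genes of several cell types differed in the same contrast. Over all tested genes, 29.5% were higher and 30.0% lower. Of 17 tested blastema and mesenchyme genes 16 were higher and 1 did not pass, and their summed level was 6329 to 6720 CPM in regenerating and 1116 to 1170 CPM in uninjured pools. Of 12 epidermal genes 1 was higher and 9 lower, summed 28170 to 31560 against 67870 to 81760 CPM. Most of that sum was krt5, which did not pass, and without it the sums were 7222 and 7289 against 12650 and 13260 CPM. Of 12 osteoblast genes 10 were higher and 1 lower (14350 to 16190 against 1639 to 1661 CPM). Most of the regenerating sum was COL10A1, and without it the sums were 5488 and 5126 against 1442 and 1413 CPM. Of 10 endothelial genes 8 were higher and 2 did not pass (226 to 284 against 89.9 to 96.9 CPM). Without plvapb the endothelial sums were 124.0 and 101.6 against 47.2 and 46.9 CPM. Nerve and Schwann cell genes moved both ways, with 3 higher and 7 lower of 14 (356.1 to 404.9 against 200.4 to 204.1 CPM). That sum rested on tubb5, a tubulin gene, at 310.0 and 256.4 against 4.88 and 7.63 CPM, and without it the direction turned, to 94.9 and 99.6 against 199.2 and 192.8 CPM. Blood and immune genes had 2 higher and 3 lower of 7 (666 to 696 against 1563 to 2231 CPM). Without cd74a, an antigen presentation gene, the other 6 summed to 210.8 and 148.6 against 190.0 and 127.7 CPM, and the groups overlapped. Leaving out the highest gene of a list was chosen after its values were seen. Pigment cell genes had 1 higher and 3 lower of 10 (59.9 to 78.4 against 79.7 to 86.3 CPM). Skeletal muscle genes had 3 higher and 1 lower of 10 (31.4 to 34.3 against 18.1 to 19.9 CPM). The share lower for pigment and the share higher for muscle were near those over all tested genes. Most of the muscle difference rested on TNNT3 (ENSDARG00000068457), at 11.1 and 15.7 CPM in regenerating and 2.36 and 1.70 CPM in uninjured pools. Without it the muscle sums were 20.3 and 18.6 against 17.6 and 16.4 CPM. Of the matched markers only pvalb2, a muscle gene, had 0 counts in all libraries. The part of these differences in the Hox values was not tested.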

How the data were processed

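The authors deposited raw counts for each Ensembl gene. CASAVA, TopHat, edgeR and the build Zv9 are named in the submitters' processing notes, and accepted alignments were counted, per the file headers. How reads were counted, on which annotation and with which strand setting is not given in the sources used here, so reads of paralogs, overlapping and antisense genes cannot be separated further.

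Names came from a table of Ensembl IDs. It holds 48 Hox rows, of which 10 have no row in the counts and were not analysed here. Of the 38 members, 26 carry no paralog letter, and for 9 RefSeq (GRCz12tu) lists 2 zebrafish genes of that name, so their names alone leave the copy uncertain. For HOXB6 and HOXB8 the b names belong to other members, hoxb6b and hoxb8b. HOXB5 names 2 IDs. Of the HoxA members, hoxa2b, hoxa9b, hoxa10b and hoxa13b carry names that RefSeq places on chromosome 16, and the copy of HOXA11 is uncertain. RefSeq places 7 further HoxA genes, hoxa13a among them, on chromosome 19, and of these only hoxa11a could be a member.

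Genes were filtered with filterByExpr (minimum count 10, minimum total 15), scaled by TMM (factors 0.870 to 1.11) and compared with edgeR's quasi-likelihood test (newer estimation), with no term but group, adjusted by Benjamini-Hochberg over 25594 genes at a threshold of 0.05. SE is the log2 fold change divided by the square root of F. Replicates differed by more than sampling noise (chi-square per degree of freedom 15.9 and 32.9). Tested on simulated data, the pipeline recovered the direction of changed genes. The share of false calls was near the threshold where the spread followed its trend and well above it where each gene had a spread of its own. The condition that the simulation had to meet was set on the first case after both were seen, so calls close to the threshold are less certain than their adjusted p. Alternatives were other scalings, DESeq2, the legacy estimation, other filters, each library left out and a replicate block. Values are given per library for tested posterior genes and for called central and anterior genes, and for up to 4 genes of each other list, part of which is printed. Names were looked up exactly or, for capitalised names, without the paralog letter. Names not found were left out, so a list can cover only part of its genes. For blood and immune genes 7 of 12 names were found, for blastema genes 14 of 20 and for epidermal genes 12 of 16. The members, lists and tests were chosen with earlier results of these data known, and lists are described by counts and medians with no list test. Software was edgeR 4.0.16, DESeq2 1.42.0 and limma 3.58.1 in R 4.3.3, with pandas 2.3.3, numpy 2.4.6, matplotlib 3.10.9, scipy 1.17.1 and Python 3.11.15.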

Additional observations from a re-analysis of the deposited data

How the results depend on the processing

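Of the 22 called Hox genes, 17 kept their call under all alternatives that tested them, and no called gene changed direction. With at least 10 CPM in 2 libraries only 10 Hox genes were tested, and 4 were higher and 4 lower. Of 9 tested posterior genes 4 were higher, of 1 tested anterior gene 0 were higher, and of 4 tested cofactor genes 1 was lower. As 0 central genes were tested, their 0 higher and 0 lower follow from the filter. By cluster 2 of 3 tested HoxA genes and the 1 tested HoxB gene were higher, and 4 of 6 tested HoxC genes were lower. That filter left 0 HoxD genes to test, so 0 could be called higher. Of all 12466 genes tested with it, 4384 were higher and 4461 lower. With DESeq2, 1 central gene was higher. With scaling by total counts alone, 2 cofactor genes were lower and 2 HoxC genes were higher, and all genes split into 8941 higher and 5524 lower in place of 7553 and 7689. With no filter, 1 HoxB gene was lower, hoxb6b. Without hoxc3a the posterior share was 96.9% and 95.6% in regenerating and uninjured pools. When 1 library was left out, its lone partner being assumed to vary like the other group, central genes higher numbered 1 to 2, anterior genes higher 0 to 1, cofactor genes lower 2 to 4 and HoxD genes higher 3 to 4. The replicate numbers are not stated to pair the pools, and deviations of same-numbered pools had a correlation of -0.0314. With the replicate block 14 Hox genes were higher and 8 lower, as without it. Scaling of counts by coding length was not run, since no coding lengths were used here. Counts limit the central and anterior genes most.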
